A study of Mus musculus with 6 samples.

Results

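The transcripts described here are those of the IL-6, IL-12 and IL-10 cytokine families in RAW264.7, a macrophage line of the mouse. The genes were named by symbol: Il6, Osm and Lif, the IL-12 family subunits Il12a, Il12b, Il23a, Il27 and Ebi3, the shared receptor gene Il6st, and Il10. Of the 10 symbols, 9 had a row among the 18019 genes of the deposited table, and expression of Il12a was not analysed here. A group of 3 control libraries was compared with a group of 3 libraries treated with TPPU, an inhibitor of soluble epoxide hydrolase, the enzyme that degrades epoxyeicosatrienoic acids. Both groups had been induced with lipopolysaccharide (LPS), a bacterial ligand of TLR4. No library without LPS was analysed here, so induction itself could not be measured. The labels call the controls NC and name all libraries M1, the inflammatory macrophage state, and they give no dose or time for either agent. The cells are a single line and all libraries carry the same batch label. Nothing says that the libraries come from separate cultures. The p-values here weigh the difference of the groups against the spread of these samples within a group, which may be technical only.

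IL-6, oncostatin M (OSM) and leukaemia inhibitory factor (LIF) signal through receptors that share gp130, the product of Il6st, and activate JAK kinases and STAT3. The IL-12 family is built of pairs of chains. The p40 chain, encoded by Il12b, pairs with p35 (Il12a) to form IL-12 and with p19 (Il23a) to form IL-23, and EBI3 pairs with p28 (Il27) to form IL-27. IL-10 is the anti-inflammatory cytokine of activated macrophages and also signals through STAT3. In macrophages these cytokine genes are induced through NF-κB and other LPS-responsive factors, and many of their mRNAs are short-lived because of AU-rich elements in their 3′ ends.

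The 250 bases before the annotated start are shown for 4 members, taken from RefSeq (GRCm38.p6, plus strand in each). Il6 is shown because its level differed most between libraries, Lif and Ebi3 because they were the highest members, and Il12b because it was among the lowest. Capitals mark matches to the NF-κB motif on either strand. The windows are chr5:30012864-30013113 for Il6, chr11:4257318-4257567 for Lif, chr17:55952373-55952622 for Ebi3 and chr11:44399813-44400062 for Il12b.
Il6: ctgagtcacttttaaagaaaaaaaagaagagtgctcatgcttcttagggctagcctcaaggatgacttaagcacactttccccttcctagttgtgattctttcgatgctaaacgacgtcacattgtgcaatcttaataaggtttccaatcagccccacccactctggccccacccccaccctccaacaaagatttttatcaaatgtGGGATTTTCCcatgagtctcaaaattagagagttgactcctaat
Lif: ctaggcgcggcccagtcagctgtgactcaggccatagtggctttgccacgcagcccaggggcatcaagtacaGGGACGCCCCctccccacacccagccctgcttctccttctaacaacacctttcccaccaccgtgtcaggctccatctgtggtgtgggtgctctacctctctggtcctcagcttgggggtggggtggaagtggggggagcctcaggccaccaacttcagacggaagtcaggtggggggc
Ebi3: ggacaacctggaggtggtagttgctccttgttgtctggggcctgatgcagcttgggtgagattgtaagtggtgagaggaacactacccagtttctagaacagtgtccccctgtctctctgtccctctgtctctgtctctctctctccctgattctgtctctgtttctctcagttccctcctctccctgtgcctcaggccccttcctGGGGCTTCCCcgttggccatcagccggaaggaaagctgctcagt
Il12b: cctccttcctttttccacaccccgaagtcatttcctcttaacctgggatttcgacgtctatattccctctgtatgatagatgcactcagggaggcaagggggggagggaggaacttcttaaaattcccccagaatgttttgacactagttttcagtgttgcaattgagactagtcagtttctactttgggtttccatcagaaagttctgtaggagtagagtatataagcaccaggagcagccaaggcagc

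An NF-κB match began 44 bases before the start in Il6 (GGGATTTTCC) and in Ebi3 (GGGGCTTCCC), and 178 bases before it in Lif (GGGACGCCCC). Over all 32817 promoter windows of this length, 7.25% held a match. The AP-1 motif TGANTCA was present in the Il6 and Lif windows, and in 6.75% of all windows. The C/EBP motif TTNCNNAA was present in Il6 alone among the 6 members with a window, and in 36.8% of all windows. The STAT motif TTCNNNGAA had no match in those 6 members and was present in 7.02% of all windows. None of the matches in the members overlapped another, and the letters of the 4 motifs were not found in the windows of Il12a, Il12b and Il6st. A match describes letters in the window and not a bound site.

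Expression was measured as FPKM, fragments per kilobase of exon scaled to each library's total. Depth, recovered from the steps of low values, was 17.7 to 22.8 M (mega) fragments per library. Of 10 macrophage markers 9 passed the expression filter defined below, and the list had a summed level of 1943.5 to 2320 FPKM in control and 2057 to 2174 with TPPU. The mannose receptor gene Mrc1 was at 0 in every control and had a mean of 0.0072 FPKM with TPPU. Summed markers of T and B cells, epithelium and endothelium, dendritic cells and cartilage reached at most 0.431, 1.71, 1.61 and 0.407 FPKM, and fibroblast markers ran from 3.58 to 8.1 in control and 3.03 to 3.85 with TPPU, whose part in the results was not tested. For the TPPU libraries the labels also cite a column of another table named for sh-LIS1. LIS1 is encoded by Pafah1b1, which measured 11.7, 14.2 and 6.52 FPKM in control replicates 1, 2 and 3. With TPPU it measured 10.7, 13.5 and 14.2 FPKM. The means were 10.8 ± 3.92 FPKM over the controls and 12.8 ± 1.87 over the TPPU libraries (SD, n = 3). Control replicate 3 and TPPU replicate 1 stood apart, with mitochondrial transcripts at 0.371% and 0.914% of summed FPKM, against 1.46% to 1.85% in the other 4 libraries. Values are therefore given for each library.

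Per length, 6 members lay above 10 FPKM on average and 3 lay below 2. The length that fits the deposited values is the summed exon length of all annotated transcripts of a gene. It is 2428 bases for Il6 and 2247 for Il23a, against 1141 and 1360 in their main transcripts. A shorter length would raise both levels, so the order below holds for the deposited FPKM only. Over the 6 libraries mean levels were 89.8 FPKM for Lif, 66.8 for Ebi3, 42.5 for Il27, 30.1 for Il6, 26.4 for Osm and 12.8 for Il6st. Il23a stood at 1.31, Il12b at 1.05 and Il10 at 0.382 FPKM. Lif lay above Ebi3, Ebi3 above Il27, Osm above Il6st, Il6st above Il23a and Il12b above Il10 in 6 of 6 libraries, with ranges that did not overlap. Il27 and Il6, Il6 and Osm, and Il23a and Il12b had overlapping ranges, and the upper of each pair was higher in 4, 4 and 3 of the 6 libraries. The level of Il6st was 9.76 times that of Il23a, the widest step in the order, followed by Il12b over Il10 at 2.75 times. Among all 18019 genes, Lif stood at percentile 97.7 of mean level, and Il10 at percentile 39.2.

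**Figure D1:**
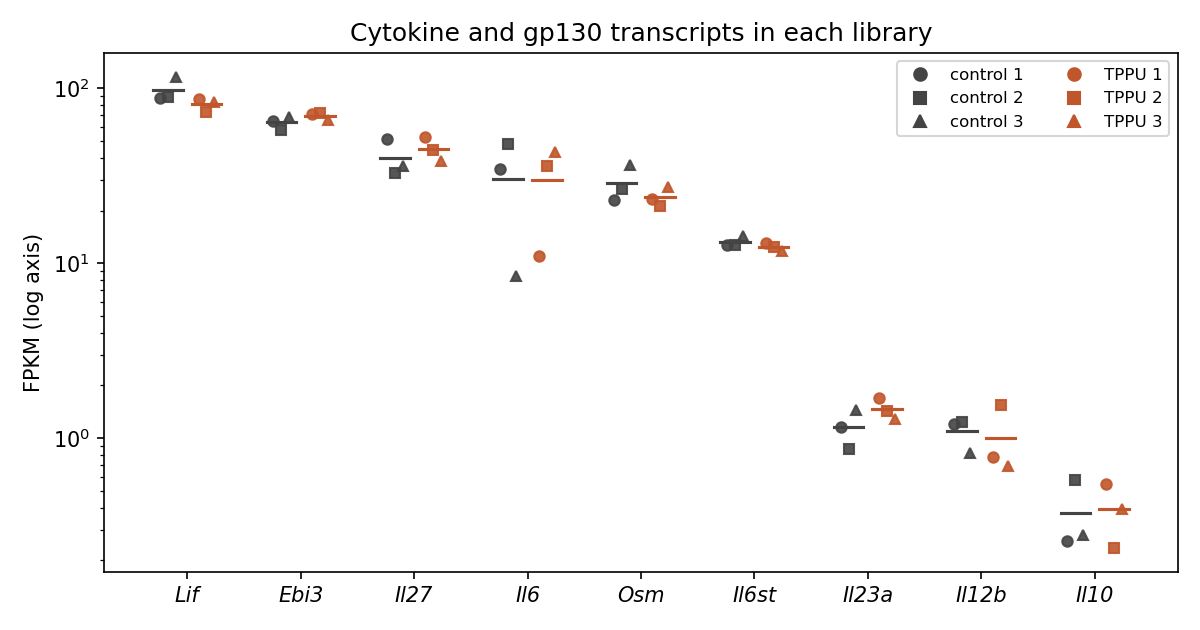
FPKM (log axis) of the 9 measured genes in each library, ordered by mean level. Points are libraries, with control in grey and TPPU in orange, and bars are group means. Lif has the highest values, from 73.6 to 117 FPKM, and Il6 has 1 low library in each group.

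No member passed the test of TPPU against control. All genes reaching 1 FPKM in 3 or more libraries were compared by limma on log2(FPKM + 1), two-sided, with Benjamini-Hochberg adjustment over 9728 genes and a threshold of 0.05. The filter kept 8 members and left out Il10. Of the 8, 0 passed in either direction, as did 0% of all tested genes. Over all tested genes 768 had an unadjusted p under 0.05, and 0 of the 8 members did. The adjusted p of the members ran from 0.638 (Lif) to 0.973 (Il6). Changes were above 0 in 4 members (Il6, Il27, Ebi3 and Il23a) and below 0 in 4 (Lif, Osm, Il6st and Il12b). Their median log2 change was 0.0038, beside 0.02 over all genes tested.

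**Figure D2:**
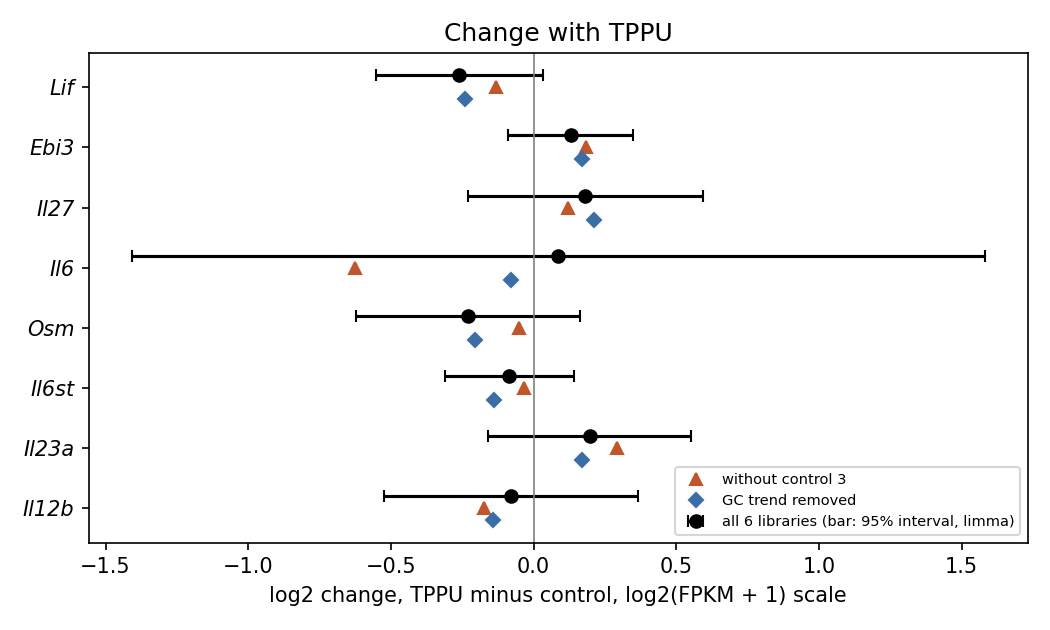
Log2 change of TPPU minus control on the log2(FPKM + 1) scale for the 8 tested members. Black points are the values over 6 libraries with 95% intervals from limma, triangles leave out control replicate 3, and diamonds have the trend with GC content removed. Every interval includes 0, and that of Il6, from -1.41 to 1.58, is the widest.

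Il6 encodes IL-6, the acute-phase cytokine, and was the member with the widest spread. Its level in the controls was 34.5, 47.8 and 8.45 FPKM in replicates 1, 2 and 3. With TPPU it was 11, 35.9 and 43.1 FPKM. Each group thus held 1 low library and a pair of high ones, and the groups overlapped over almost their whole range. The group means were 30.2 ± 20 FPKM (control) and 30 ± 16.9 FPKM (TPPU; SD, n = 3 each). The log2 change was 0.09, its 95% interval ran from -1.41 to 1.58, and limma gave an adjusted p of 0.973. The interval spans a lower and a higher level alike, so the data do not show that the level was alike in the groups. In bulk RNA, fewer cells expressing a gene and less of its RNA per cell cannot be told apart. Leaving out control replicate 3 moved the change to -0.63 (SE 0.49), and leaving out TPPU replicate 1 moved it to 0.67 (SE 0.6). With both low libraries left out, which leaves 2 against 2, it was -0.04 (SE 0.15).

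The gap between Il6 libraries was larger than counting error. Recovered fragments were 1482, 2606 and 392 in the controls and 488, 1992 and 2222 with TPPU, so counting alone gives an error of 1.96% to 5.05% of each value. The within-group SD of Il6 was 1.14 on the log2(FPKM + 1) scale, against a median of 0.16 over the tested genes, and 7 of 9728 genes had a larger one. That Il6 varied between libraries was known when the genes were chosen, so this rank is a description and not a test. Both low libraries were the ones with the low mitochondrial share given above.

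The low libraries also differed in how expression followed GC content. The main Il6 transcript has 35.7% GC, and 0.11% of 9123 tested genes with an annotated 3′ region have less, against a median of 50.3%. Across the tested genes, which are not independent, GC content correlated with each library's deviation from the gene mean at a Spearman's rho of 0.61 in control replicate 3, 0.25 in TPPU replicate 1, and -0.19 to -0.46 in the other 4 libraries. The deviation of Il6 from its mean was -1.47 in control replicate 3 on the log2(FPKM + 1) scale, where the GC trend of that library stood at -0.43. In TPPU replicate 1 it was -1.12, and the trend stood at -0.12. With the trend removed the values were 5.11, 5.47 and 3.67 in control and 3.7, 5.06 and 5.25 with TPPU. Control replicate 3 and TPPU replicate 1 remained the low libraries on that scale, and the range narrowed from 2.37 to 1.8. The low mitochondrial share, the GC trend and the low Il6 level fall in the same libraries and cannot be told apart here. The cause of the low Il6 level was not tested. With the mitochondrial share as a covariate in limma, an alternative added after the data were seen, the Il6 change was -0.49 (SE 0.20, adjusted p = 0.289), against 0.09 (SE 0.65) without it.

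**Figure D3:**
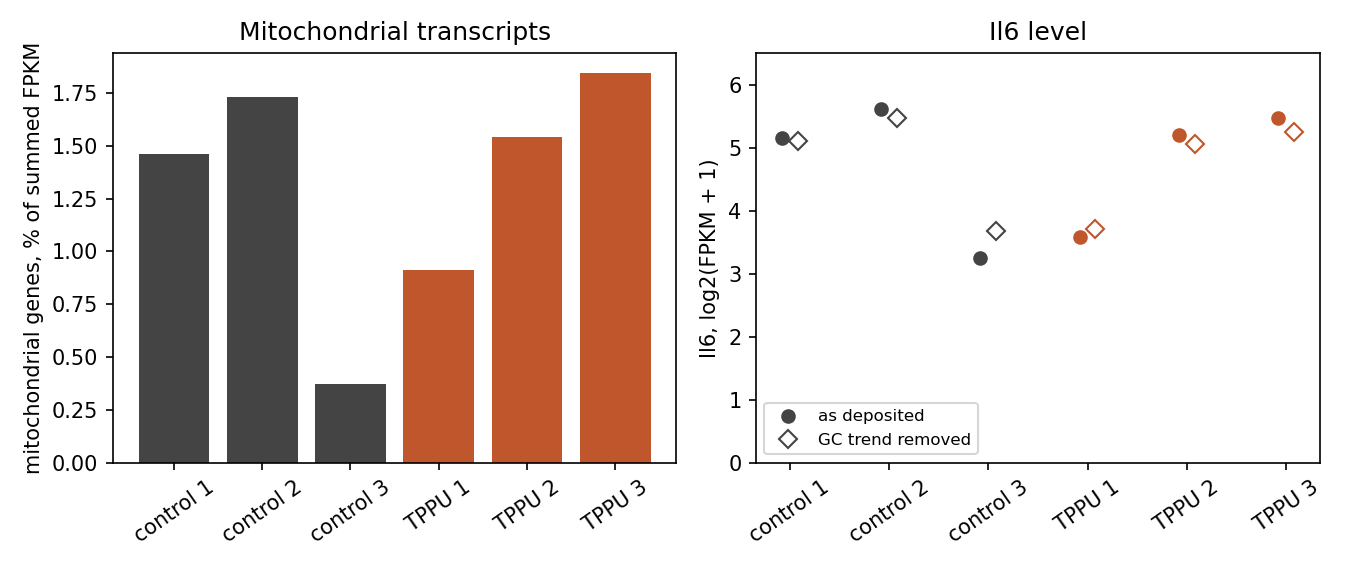
Left, the percentage of summed FPKM from mitochondrial genes in each library. Right, Il6 on the log2(FPKM + 1) scale as deposited (filled) and with the GC trend removed (open). The lowest mitochondrial shares, 0.371% and 0.914%, and the lowest Il6 values fall in the same 2 libraries.

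The genes most like Il6 across the 6 libraries were not cytokines. By Pearson's r of log2(FPKM + 1), which is a description over 6 libraries that share the library effects above, the nearest were Tmem161b, Ddx3y, Drg1, Ddx3x and Pbk, with r from 0.993 to 0.998. In all, 193 tested genes had an r of at least 0.95 with Il6. Such genes numbered 155 for Il6st and 138 for Lif, and were fewest for Il12b, at 7. Ddx3x, which encodes an RNA helicase, measured 13.8, 14.9 and 8.59 FPKM in control and 8.75, 13.3 and 14.3 with TPPU. Its 2 low libraries were those of Il6.

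Lif, the highest member, encodes LIF, a cytokine known for keeping mouse embryonic stem cells undifferentiated. It measured 88.3, 89.5 and 117 FPKM in the controls and 86.8, 73.6 and 83.6 with TPPU. Every TPPU value lay below every control value, though the nearest pair, 88.3 and 86.8, were close. Non-overlap in this direction was seen in 7.88% of all tested genes, and in either direction in 15.4%, beside 1 of 8 members (12.5%). The group means were 98.2 ± 16.1 and 81.3 ± 6.93 FPKM (SD, n = 3 each). The log2 change was -0.26, with a 95% interval from -0.55 to 0.03 and a limma adjusted p of 0.638. Without control replicate 3, which held the highest Lif value, the change was -0.13 (SE 0.08).

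Osm lies beside Lif on chromosome 11, with 16530 bases between the genes in mm10 (Osm 4236420 to 4241026, Lif 4257557 to 4272514, both on the plus strand). It encodes OSM, which acts on stromal cells and hepatocytes. Osm measured 23.1, 26.6 and 36.6 FPKM in control and 23.4, 21.3 and 27.4 with TPPU, and the groups overlapped. Osm had a log2 change of -0.23 (95% interval -0.62 to 0.16, limma adjusted p = 0.739), and -0.05 without control replicate 3. The ratio of Lif to Osm stayed between 3.05 and 3.83 in the 6 libraries, with means of 3.46 ± 0.329 in control and 3.41 ± 0.331 with TPPU. Both genes were highest in control replicate 3, the library in which Il6 was lowest.

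Il6st, the gene of gp130, had the narrowest range of the 9 genes as deposited. It measured 12.7, 12.6 and 14.2 FPKM in control and 13, 12.4 and 11.8 with TPPU, and its highest value was 1.21 times its lowest. On the log2(FPKM + 1) scale its range was 0.26, against 0.31 for Ebi3, but with the GC trend removed that of Il6st was 0.40 and that of Ebi3 0.28. The log2 change was -0.09 (95% interval -0.31 to 0.14, limma adjusted p = 0.83). A change of 1 or more on the log2 scale lies outside this interval, as it does for every other tested member except Il6. These intervals rest on a spread within groups that may be technical only.

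The ligand-specific receptor chains of the gp130 family were low or near the detection floor. Il6ra, the IL-6 receptor chain, measured 1.7 to 2.6 FPKM over the 6 libraries, and Il11ra1, that of IL-11, 1.36 to 2.33. Osmr and Lifr, which encode the receptor chains of OSM and LIF, reached at most 0.068 and 0.101 FPKM, with 0 to 15 and 3 to 23 fragments per library. Thus Lif and Osm transcripts were present above 20 FPKM in all 6 libraries, in which Lifr and Osmr transcripts were at most 0.101 FPKM. Of the 5 receptor genes listed, 2 were tested, 0 passed, and both had a change below 0 (Il6ra -0.0026, Il11ra1 -0.23, with limma adjusted p = 0.997 and 0.718). Of the other gp130 ligands, Cntf passed the filter, at 1.68 ± 0.767 and 1.5 ± 0.951 FPKM, and Il11, Clcf1 and Ctf1 did not.

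**Figure D4:**
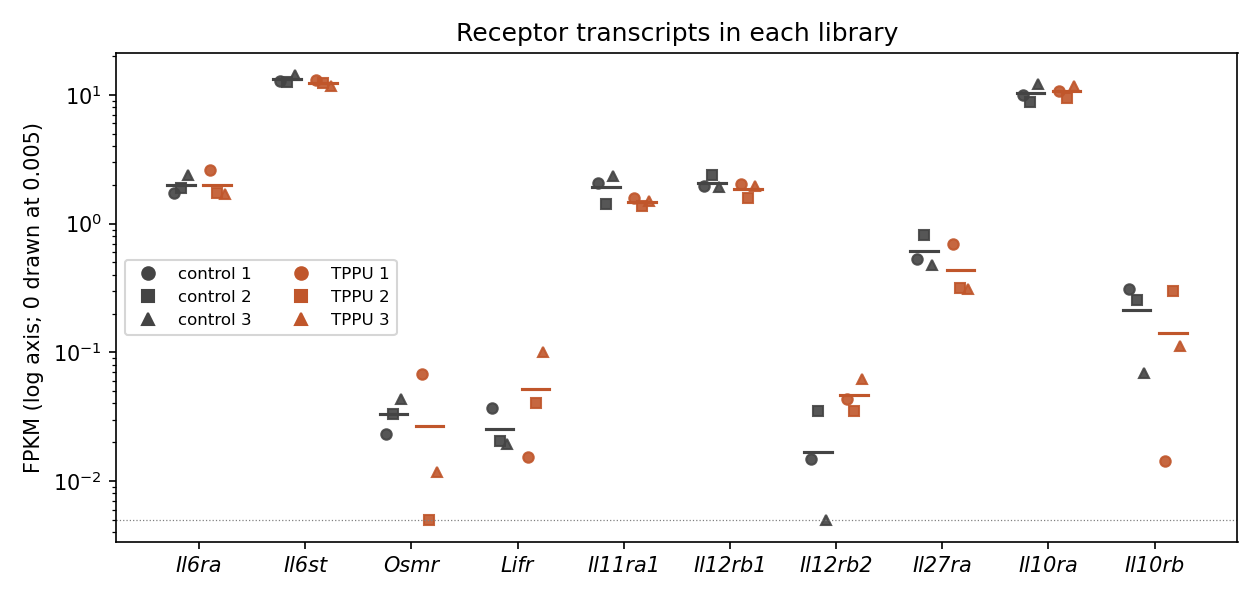
FPKM (log axis, with 0 drawn at 0.005) of receptor genes for the cytokines in each library, with control in grey, TPPU in orange and bars at group means. Il6st and Il10ra lie near or above 10 FPKM, and Osmr, Lifr and Il12rb2 lie at or below 0.101 FPKM.

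Ebi3 and Il27, whose products pair to form IL-27, were both among the 3 highest members by deposited FPKM, an order that depends on the gene lengths used. Ebi3 measured 64.9, 57.8 and 68.7 FPKM in control and 71.4, 72.1 and 65.8 with TPPU. The TPPU values lay above all but 1 control value, which fell inside their range. For Ebi3 the log2 change was 0.13 (95% interval -0.09 to 0.35, SE 0.1, limma adjusted p = 0.737). Ebi3 shares 270 exonic bases with Gm16712, an annotated antisense gene listed at 8.89 to 11.4 FPKM, and whether the counting used the strand is not given in the sources used here.

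Il27, the p28 gene, measured 51.4, 32.7 and 35.9 FPKM in control and 52.4, 44.3 and 38.2 with TPPU. Replicate 1 was the highest library in each group, and the ranges overlapped. This gave a log2 change of 0.18 (95% interval -0.23 to 0.59, SE 0.18, limma adjusted p = 0.796). The ratio of Ebi3 to Il27 was above 1 in 6 of 6 libraries, from 1.26 to 1.91, with means of 1.65 ± 0.341 in control and 1.57 ± 0.186 with TPPU. Il27 shares 103 of its 1021 exonic bases with Apobr, a gene on the opposite strand listed at 24.2 to 27.7 FPKM, so the Il27 level and this ratio carry the same limit as Ebi3. Il27ra, the receptor gene of IL-27, measured 0.31 to 0.813 FPKM and was left out by the filter.

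Il12b and Il23a, the p40 and p19 genes of IL-23, were far below the IL-27 subunits. Il12b measured 1.21, 1.24 and 0.825 FPKM in control and 0.782, 1.54 and 0.694 with TPPU, from 42, 55, 31, 28, 69 and 29 fragments. The TPPU group held both the highest and the lowest value. Its log2 change was -0.08 (95% interval -0.52 to 0.37, limma adjusted p = 0.922).

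Il23a measured 1.16, 0.87 and 1.44 FPKM in control and 1.69, 1.42 and 1.28 with TPPU, from 46, 44, 62, 69, 73 and 61 fragments. The TPPU values lay above 2 of the 3 controls, and control replicate 3 fell among them. TPPU minus control gave a log2 change of 0.2 (95% interval -0.16 to 0.55, SE 0.16, limma adjusted p = 0.753). Counting alone gives an error of 11.7% to 15.1% of each Il23a value and 12% to 18.9% of each Il12b value. The ratio of Il23a to Il12b ranged from 0.7 to 2.16 and was above 1 in control replicate 3 and TPPU replicates 1 and 3. This ratio rests on summed exon lengths, and that of Il23a is well above the length of its main transcript. Il12rb1, the receptor chain that binds p40, measured 1.58 to 2.37 FPKM (limma adjusted p = 0.837), and Il12rb2 at most 0.062. Il23r was not analysed here.

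Il10 was the lowest member. It measured 0.259, 0.576 and 0.28 FPKM in control and 0.545, 0.234 and 0.396 with TPPU, which correspond to 6, 17, 7, 13, 7 and 11 fragments. The exact Poisson 95% interval of the value from 6 fragments runs from 0.095 to 0.563 FPKM, and that from 17 fragments from 0.336 to 0.925, and both cover counting error alone. The groups overlapped fully, and a two-sided exact permutation test on log2(FPKM + 1) gave a difference of 0.02 with p = 1, where 3 against 3 can reach no less than 0.1. Il10ra, the ligand-binding chain of the IL-10 receptor, was far higher per length, at 8.87 to 12.2 FPKM, with a log2 change of 0.04 (limma adjusted p = 0.937). The second chain, Il10rb, measured 0.014 to 0.312 FPKM from 1 to 26 fragments, but shares 569 exonic bases with Gm21970 on the same strand, so its level is uncertain. Il19 and Il22, relatives of IL-10, had at most 15 and 4 fragments in a library.

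The members did not move as a block between libraries. In control replicate 3 Lif and Osm were above their means by 0.39 and 0.48 on the log2(FPKM + 1) scale, Il6 was at -1.47 and Ebi3 at 0.04. In TPPU replicate 1, the other library with a low mitochondrial share, Il6 was at -1.12, but Lif and Osm were at -0.03 and -0.14. Over the 6 libraries, which share their depth and library effects, Pearson's r was 0.9 for Lif and Osm, and 0.57 without control replicate 3. It was 0.95 for Ebi3 and Il23a with and without that library, the highest of all member pairs. For Lif and Il6st it was 0.83, for Il6 and Il6st -0.82, for Ebi3 and Il27 0.58, and for Il12b and Il23a -0.39. These correlations describe 6 points each. Beside each member the single most similar gene had an r from 0.965 (Atosa with Il12b) to 0.999 (Cemip2 with Lif).

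**Figure D5:**
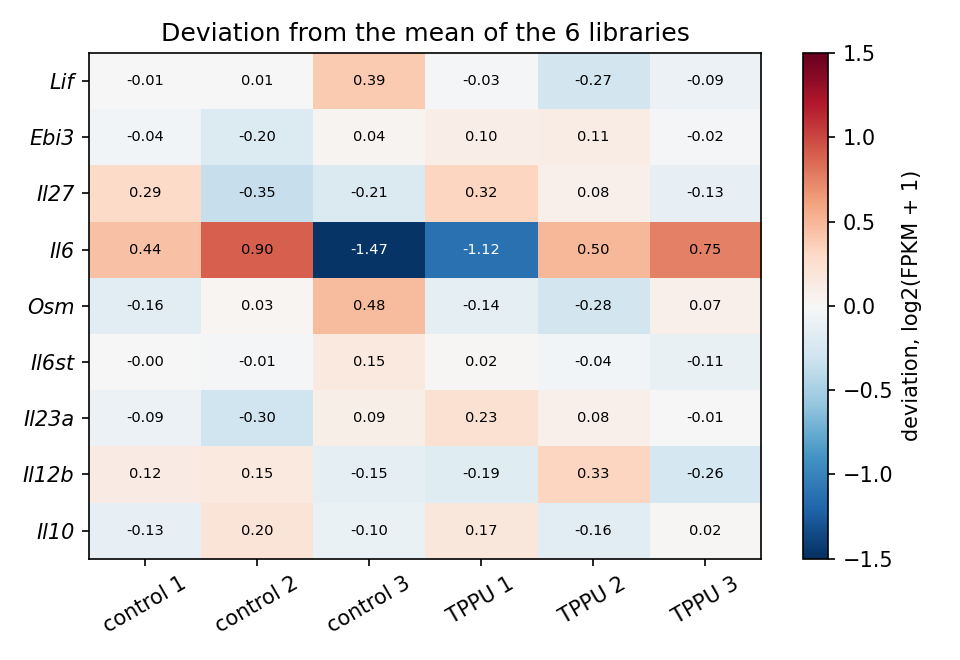
Deviation of each gene from its mean over the 6 libraries on the log2(FPKM + 1) scale, by library. Il6 in control 3 and TPPU 1, at -1.47 and -1.12, shows the deepest deviations, and Lif and Osm are highest in control 3.

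A feature that the choice of genes did not use is the density of ATTTA, the core of AU-rich elements, in the 3′ untranslated region of the main transcript. Il27 had 17.5 copies per kilobase, Il6 14.1, Il12a 12.2, Il23a 9.13, Il10 8.5, Il12b 7.75 and Osm 5.9. The median over 9123 tested genes with such a region was 1.28. At least the density of Il6 was reached by 0.406% of these genes, and that of Osm by 4.54%. By number the members stood out less: Il6, Osm, Il12a, Il12b, Il23a and Il10 had 6 copies each, which 15.4% of these genes reached, and Il27 had 5, which 20.1% reached. Ebi3 had a single copy in 245 bases, and Lif and Il6st, with 3′ regions of 3180 and 5641 bases, had densities of 2.2 and 1.6. The highest value of Il27 was 1.6 times its lowest, against 5.65 times for Il6, and whether the density goes with the spread between libraries was not tested.

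Genes of the JAK and STAT families and other genes around these cytokines were counted in lists, which were chosen with earlier results of these data known. The JAK and STAT list also holds genes known for other receptors, such as Jak3 and Stat2. None of the 10 tested JAK and STAT genes passed (limma), with 4 changes above 0 and 6 below and a median of -0.03, beside 0.02 over all genes. Stat2, a transcription factor of interferon signalling, was the 1 gene of the 10 with all TPPU values below all controls, a share near the 7.88% of all tested genes. It had group means of 32.6 ± 3.87 and 26.7 ± 2.11 FPKM and a limma adjusted p of 0.61. Stat3, the main factor downstream of gp130, had means of 17.9 ± 2.65 and 15.3 ± 1.14 FPKM and an adjusted p of 0.691 in limma. Jak3, a kinase of the common gamma chain receptors, had means of 7.91 ± 1.35 and 6.02 ± 0.479 FPKM.

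Among 12 tested STAT3 feedback and target genes, 0 passed, 1 change was above 0 and 11 were below, with a median of -0.24, or -0.16 without control replicate 3. The TPPU libraries were all below the controls for 6 of the 12 genes and all above for 1, beside 7.88% and 7.48% of all tested genes. As the list was chosen with earlier results of these data known, these shares are a description and not a test. The 1 gene above was Bcl3, with means of 31.6 ± 3.62 and 35.5 ± 0.774 FPKM in control and TPPU. Its log2 change was 0.17 (limma adjusted p = 0.706). Pim1, a serine/threonine kinase gene, measured 67.9, 66.6 and 75.8 FPKM in control and 52.9, 56.2 and 52.3 with TPPU. Its log2 change was -0.37 (SE 0.09, limma adjusted p = 0.397). Bcl6, a transcriptional repressor gene, measured 29.5, 29.6 and 33.7 FPKM in control and 24.4, 23.1 and 22.3 with TPPU, and its log2 change was -0.4 (SE 0.1, adjusted p = 0.397 in limma). Socs3, which encodes the inhibitor that binds gp130, measured 45.7, 65.6 and 103 FPKM in control and 43.3, 35.8 and 39.7 with TPPU. Its log2 change was -0.76 (SE 0.25, adjusted p = 0.562 in limma), and -0.46 without control replicate 3.

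Of 12 tested transcription factors that act on the members' genes 0 passed in limma, with 3 changes above 0 and 9 below and a median of -0.14, or -0.04 without control replicate 3. The TPPU libraries were all below the controls for 3 of the 12 genes (Cebpb, Nfkbiz and Atf3) and all above for 0. Over all tested genes these shares were 7.88% and 7.48%, and the choice of the list sets the same limit as above. The 3 changes above 0 were Rel at 0.02, Irf8 at 0.02 and Batf at 0.27. Cebpb, an activator of Il6, had means of 50.3 ± 6.96 and 33.6 ± 4.87 FPKM in the control and TPPU groups (adjusted p = 0.397 in limma). Nfkbiz, which encodes IκBζ, an activator of Il6 and Il12b, had 103 ± 10.2 and 79.7 ± 4.65 (limma adjusted p = 0.466). Atf3, a repressor of Il6 and Il12b, measured 381 ± 27.1 and 300.4 ± 19.6 (limma adjusted p = 0.411). Of 9 tested genes that act on cytokine mRNA, 0 passed, with 2 above 0 and 7 below. The TPPU libraries were all below the controls for 3 of the 9 and all above for 1, beside 7.88% and 7.48% of all tested genes. The median change of the 9 was -0.14, or -0.07 without control replicate 3. As the list was chosen with earlier results of these data known, these shares too are a description and not a test. Zfp36, which encodes the decay factor TTP that binds AU-rich elements, had means of 134 ± 37.1 and 76.7 ± 5.42 FPKM, with a log2 change of -0.76 (SE 0.19, adjusted p = 0.397 in limma), or -0.58 without control replicate 3. Its relative Zfp36l2 had means of 14 ± 1.85 and 9.12 ± 1.72 (limma adjusted p = 0.451). Zc3h12a, which encodes the RNase Regnase-1 that cleaves Il6 mRNA, measured 23.9 ± 7.26 and 21 ± 1.69.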

How the data were processed

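Poly(A) RNA was sequenced in 6 libraries with second strands marked by dUTP, per the labels' protocols. The authors deposited FPKM values per gene symbol. The table's name and its values give the unit, and the submitters' processing notes name mm10. For the aligner, counter and annotation, nothing is given in the sources used here. Library names in the descriptions tied columns to samples. Depth was estimated as the value at which low FPKM values, multiplied by the summed exon length in GENCODE M21, gave whole fragments: 97.9% to 98.3% of values up to 40 fragments came within 0.1 of a whole number, against 20% by chance. No count model was applied. Intervals cover counting error only.

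The deposited FPKM values were analysed as log2(FPKM + 1), which understates changes of low genes, by limma 3.58.1 under R 4.3.3, with group as the sole term, a trend of variance on mean, and all genes reaching 1 FPKM in 3 or more libraries. The one member below the filter was compared by exact permutation. Named genes were all members, up to 4 genes per list by smallest p, and the genes most correlated with a member; any other gene was named with its values known. Some genes of the lists are not reported here. The members and lists were chosen with earlier results of these data known. Alternatives were other pseudocounts, filters, scalings and variance models, the replicate number as a block, libraries left out, and removal of GC or length trends by loess (span 0.3); a covariate for the mitochondrial share was added after the data were seen. GC content was known for 97.9% of tested genes. The fit was also run on simulated data with independent noise, which lacks the library effects that genes share here, so that run does not cover them. Promoter windows came from RefSeq (GRCm38.p6). Python 3.11.15, numpy 2.4.6, pandas 2.3.3, scipy 1.17.1 and matplotlib 3.10.9 were used.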

Additional observations from a re-analysis of the deposited data

How the results depend on the processing

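No member passed the limma threshold under any alternative run, and the lowest adjusted p was 0.229 (Ebi3, mitochondrial share as a covariate). Of 158 changes of the 8 tested members under alternatives, 149 kept their sign. Il6 had the other sign in 7: -0.17 with sample quality weights, -0.043 with both control replicate 3 and TPPU replicate 1 left out, -0.079 with the GC trend removed, -0.49 (SE 0.20) with the mitochondrial share as a covariate, and when single libraries were left out, -0.63 without control replicate 3, -0.14 without TPPU replicate 2 and -0.27 without TPPU replicate 3. Its range with 1 library left out was -0.63 to 0.67. Il27 was -0.099 with quality weights. Il12b was 0.030 without TPPU replicate 3, in a range of -0.26 to 0.030. Il10 was -0.04 without control replicate 1, -0.02 without control replicate 3 and -0.056 without TPPU replicate 1, in a range of -0.056 to 0.13. Lif stayed between -0.33 and -0.13, Osm between -0.37 and -0.04, Ebi3 between 0.05 and 0.18, Il23a between 0.1 and 0.33, and Il6st between -0.14 and -0.03. Il12b and Il23a gave no value at a mean of at least 5 FPKM.

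Over all genes, where 0 passed in each direction, quality weights gave 89 higher and 80 lower, both libraries left out 29 and 10, the GC trend removed 1 and 9, and the mitochondrial covariate 17 and 24. Leaving out single libraries gave 0 to 5 higher and 0 to 1 lower, and the 5 and 1 came without TPPU replicate 1. The cause was not tested. With the replicate number as a block 0 genes were higher and 0 lower. Deviations of same-numbered libraries correlated at -0.3, 0.15 and -0.4, and 0 of the 3 controls correlated best with its own number. These values cannot show whether the numbers pair the samples, because library effects such as that of control replicate 3 weigh on them. At the estimated depth, counting error limits Il10, Il12b and Il23a most.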

Other observations

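The 7 tested genes with a wider within-group spread than Il6, named after their values were seen, were Wfdc17, Ighj2, Serpina1e, Gm10964, Gm15344, Snhg1 and Fundc2. Wfdc17, which encodes a secreted WAP-domain protein of activated macrophages, stood at 50.5, 84.6 and 4.22 FPKM in control replicates 1, 2 and 3, and at 17.2, 50.5 and 84.3 in the TPPU replicates. Snhg1, a small nucleolar RNA host gene, stood at 11.5, 20.6 and 2.82 and at 4.78, 18.6 and 20.2 FPKM in the same order. Fundc2 stood at 6.03, 6.03 and 0.526 and at 1.38, 7.12 and 6.65 FPKM. Of the 7 genes, 6 had their lowest values in control replicate 3 and TPPU replicate 1, as Il6 did, and Ighj2 and Gm10964 were listed at 0 in both. Serpina1e did not follow: in the controls it was lowest in replicate 2, at 0.33 FPKM, against 2.4 in replicate 3. GC content of the main transcripts was 43.7% for Wfdc17, 40.6% for Gm15344, 42.2% for Snhg1 and 35.8% for Fundc2. It was 54.2% for Ighj2, 52.3% for Serpina1e and 51.7% for Gm10964, above the median of 50.3% over tested genes. The 5 genes most like Il6 ran from 36.1% (Ddx3y) to 47.3% (Drg1), all below that median. Whether GC content explains the spread of these genes was not tested. With the GC trend removed, the within-group SD of Il6 was 0.9 on the log2(FPKM + 1) scale and 15 genes had a larger one.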
